A study of Mus musculus with 8 samples.

Results

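The genes described here encode the enzymes that break down the branched-chain amino acids leucine, isoleucine and valine, the propionate steps that follow, and the enzymes and transporter of ketone body use, together with Klf15, a transcription factor that drives several of them. They are 32 named genes, chosen by symbol with results of the same comparison known, out of 23100 loci in the gene table. All 32 had a row, and 30 of them were among the 12133 genes that the authors' Cuffdiff comparison tested. Bcat1 and Bdh2 were listed but not tested.

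Ventricles came from 8 mice aged 4.5 months. The 4 DKO animals carried loxP-flanked Sox5 and Sox6 (Sox5fl/fl, Sox6fl/fl) and were positive for aMHC-Cre, a recombinase driven by a cardiomyocyte promoter. The 4 Ctrl animals carried the same floxed alleles and were negative for aMHC-Cre. Effects of Cre itself and of the deletion cannot be told apart, the labels name no operation on these animals, and non-cardiomyocytes keep intact Sox5 and Sox6. Sox6 was at 1.69 FPKM in DKO and 3.39 FPKM in Ctrl (q = 0.00158 in the authors' deposited table), and the untested Sox5 was at 0.497 FPKM in DKO and 0.369 FPKM in Ctrl.

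Each level is the authors' FPKM, a read count scaled by transcript length and library size, with 1 value per genotype pooled over its animals. No value per animal, error or read depth is known, so a gene is called here only where the authors' comparison gave a q of at most 0.05, and folds and log2 ratios set DKO over Ctrl. The tissue label fitted the defining markers. The summed level of 12 cardiomyocyte markers was 79599 FPKM in DKO and 93628 FPKM in Ctrl. Liver and fat markers were near 0, with Alb listed at 0 in DKO and 0.0131 FPKM in Ctrl, Adipoq at 0.0394 FPKM in DKO and 0.0240 FPKM in Ctrl, and Ucp1 listed at 0 in both. Of the 7 adipocyte markers, Cidea alone was above 1 FPKM, at 37.8 FPKM in DKO and 35.2 FPKM in Ctrl.

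As background, branched-chain amino acids first lose their amino group to a transaminase. The resulting ketoacids are then committed to breakdown by the branched-chain ketoacid dehydrogenase of the mitochondrial matrix, which a kinase switches off and a phosphatase switches on. Leucine ends in acetyl-CoA and acetoacetate, valine in propionyl-CoA and isoleucine in both acetyl-CoA and propionyl-CoA. Propionyl-CoA enters the citric acid cycle as succinyl-CoA. Heart muscle also burns ketone bodies, through a dehydrogenase, a CoA transferase and a thiolase. In mouse heart, Klf15 is known to promote expression of enzymes of branched-chain amino acid breakdown.

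Promoter sequence from RefSeq (GRCm38.p6) was matched by symbol for 28 of the 32 genes. Dbt, Mut, Abat and Acat1 were not matched. The 250 bases before the annotated start are shown 5′ to 3′ on the gene's strand for Klf15, for 2 subunits of the ketoacid dehydrogenase that fell (Bckdha and Dld), for the kinase that was not called (Bckdk) and for the most abundant ketone enzyme (Oxct1). Capitals mark CACCC or its reverse complement GGGTG, the core of the box that Krüppel-like factors bind.
Klf15 (chr6:90462326-90462575, plus strand): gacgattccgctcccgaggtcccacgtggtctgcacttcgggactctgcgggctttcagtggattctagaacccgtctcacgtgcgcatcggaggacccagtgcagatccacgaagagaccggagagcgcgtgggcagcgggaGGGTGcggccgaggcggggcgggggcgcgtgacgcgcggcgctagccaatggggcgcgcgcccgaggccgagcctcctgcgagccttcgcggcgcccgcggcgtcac
Bckdha (chr7:25658762-25659011, minus strand): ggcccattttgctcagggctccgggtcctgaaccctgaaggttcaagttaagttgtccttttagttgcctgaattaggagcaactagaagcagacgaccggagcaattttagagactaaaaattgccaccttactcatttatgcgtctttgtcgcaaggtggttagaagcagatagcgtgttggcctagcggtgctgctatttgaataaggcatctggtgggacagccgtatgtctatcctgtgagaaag
Dld (chr12:31351472-31351721, minus strand): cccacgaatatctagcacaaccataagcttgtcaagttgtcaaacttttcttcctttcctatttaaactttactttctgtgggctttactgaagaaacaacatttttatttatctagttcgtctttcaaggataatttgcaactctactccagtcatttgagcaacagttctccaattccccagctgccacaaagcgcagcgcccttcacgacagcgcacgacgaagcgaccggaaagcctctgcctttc
Bckdk (chr7:127903823-127904072, plus strand): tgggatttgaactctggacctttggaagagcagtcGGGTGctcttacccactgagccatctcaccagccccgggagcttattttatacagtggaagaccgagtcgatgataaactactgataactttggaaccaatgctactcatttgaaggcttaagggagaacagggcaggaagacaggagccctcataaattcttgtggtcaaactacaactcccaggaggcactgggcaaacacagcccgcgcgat
Oxct1 (chr15:4026178-4026427, plus strand): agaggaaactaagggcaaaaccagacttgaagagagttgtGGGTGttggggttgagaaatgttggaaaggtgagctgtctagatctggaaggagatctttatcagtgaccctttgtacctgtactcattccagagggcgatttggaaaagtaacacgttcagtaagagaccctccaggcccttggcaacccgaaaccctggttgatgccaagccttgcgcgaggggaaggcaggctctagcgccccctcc
The Klf15, Bckdk and Oxct1 windows each held 1 such match, and those of Bckdha and Dld held none. Only genes with 1 window were shown. Of the called members not shown, Bckdhb, Bdh1, Aldh6a1, Hibadh, Ivd, Mccc2 and Pcca had a window with a match. The windows of Hibch and Pccb held none. Over all 35 windows of the 28 genes, which include second starts of some genes, 60% held CACCC on either strand, against 52.0% of 32851 windows of the same length over all genes. None of the 35 windows held AACAAT, the core bound by Sox factors, on either strand, against 9.42% of all windows. Likewise AAGGTCA, bound by estrogen-related receptors, was in none of the 35 and in 4.08% of all windows, and CCGGAAGT, bound by Ets factors, in none of the 35 and in 2.88%. The median GC content was 54.8% in the 35 windows and 52.4% in all windows, and its part in these shares was not tested. None of these motifs contains another, and a match or its absence in this window says nothing on binding.

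In DKO ventricles 15 of the 30 tested genes fell, none rose, and the falls were modest. Across all tested genes, 3.06% were called lower and 4.3% higher. The members were chosen with this comparison known, so their count is a description. Among the 15, folds ran between 1.20 and 1.50 lower, with a median of 1.25. At a q of at most 0.01 the called members numbered 8, and 5 were at least 1.3-fold lower. Of the 30 tested genes, 28 had a log2 ratio below 0, as had 6198 of all 12133 tested genes. The members' median was -0.27, beside -0.0042 over all tested genes and -0.02 over the 8538 at a mean of at least 5 FPKM. Of those 8538, 4780 had a log2 ratio below 0 and 3.64% were called lower.

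**Figure D1:**
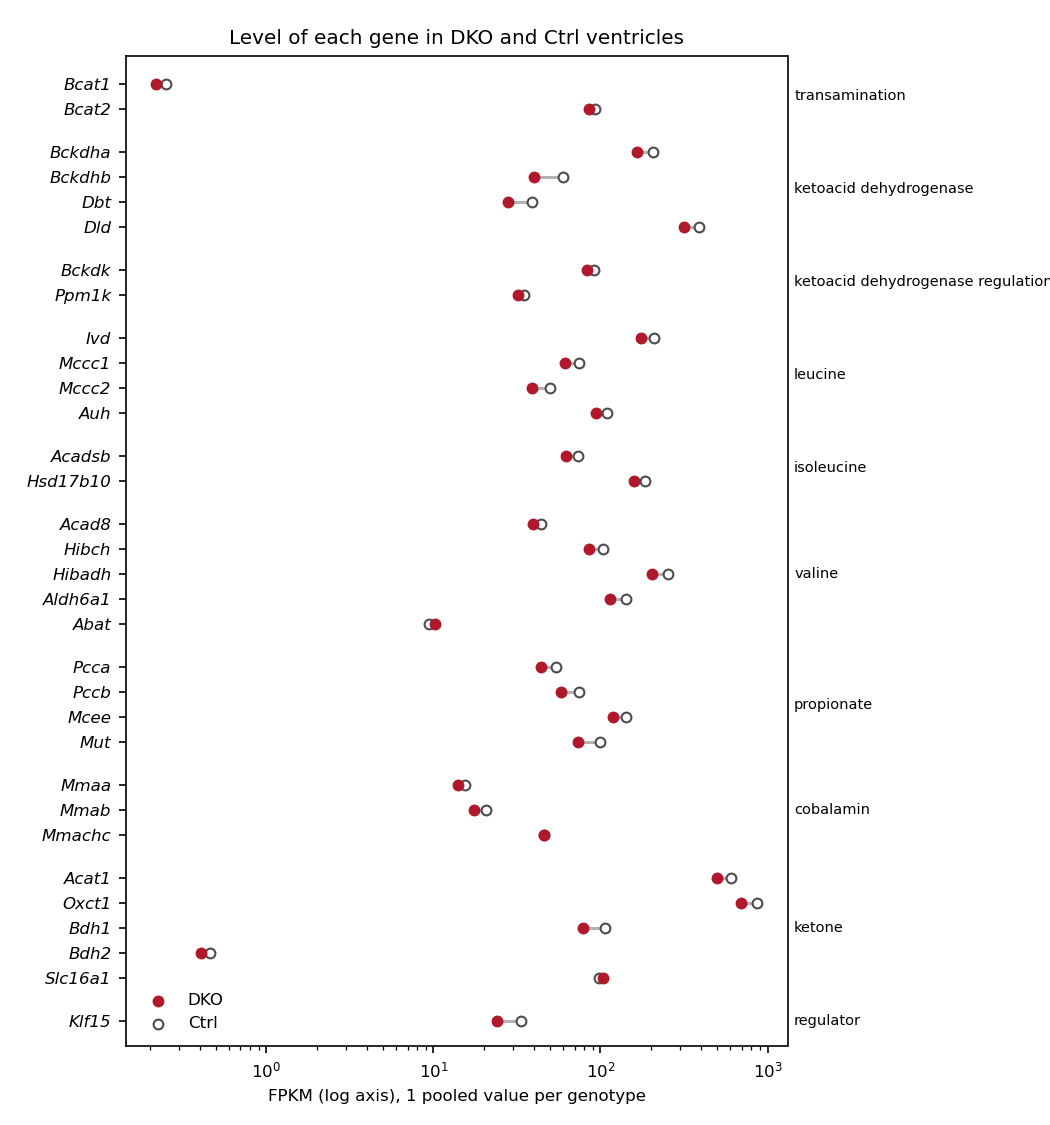
Level of each of the 32 genes by metabolic step, in FPKM on a log axis, with filled points for DKO and open points for Ctrl, each 1 pooled value. Oxct1 stands highest at 695 FPKM in DKO and 870 FPKM in Ctrl, Bcat1 and Bdh2 lie below 0.5 FPKM, and the filled points lie left of the open ones except for Abat and Slc16a1, with those of Mmachc on top of each other.

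Levels per transcript length spanned a wide range, and the 9 highest members stood in the same order in both genotypes. Among the changes of rank below them, Slc16a1 was 10th in DKO and 14th in Ctrl, and Bdh1 15th in DKO and 11th in Ctrl. Oxct1 was first, followed by Acat1 (498 FPKM in DKO, 607 FPKM in Ctrl) and Dld (318 FPKM in DKO, 391 FPKM in Ctrl). Among genes that were tested, Abat was the lowest, at 10.2 FPKM in DKO and 9.37 FPKM in Ctrl, below Mmaa at 14.0 FPKM in DKO and 15.4 FPKM in Ctrl. No spread over animals is known, so neighbours in this order cannot be separated.

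Of the transaminase genes, nearly all RNA came from the mitochondrial one. Bcat2 was at 85.5 FPKM in DKO and 93.0 FPKM in Ctrl and was not called (q = 0.621 in the authors' deposited table). Bcat1, which encodes the cytosolic transaminase, was at 0.219 FPKM in DKO and 0.252 FPKM in Ctrl. Bcat2 was thus 391 times the level of Bcat1 in DKO and 369 times in Ctrl. Bcat1 was near 0 and not tested, so these ratios are rough, and they have no error.

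All 4 genes of the branched-chain ketoacid dehydrogenase fell. Bckdhb, which encodes the beta subunit of the decarboxylase component, had the largest fall of the 32 genes, to 39.8 FPKM in DKO against 59.6 FPKM in Ctrl, 1.50-fold lower (log2 -0.58; q = 0.00158 in the authors' deposited table). Its locus lies at chr9:83818921-84017847 in mm9. Dbt, the transacylase that forms the core of the complex, was at 28.0 FPKM in DKO and 39.1 FPKM in Ctrl, 1.40-fold lower (q = 0.00158 in the authors' deposited table). Bckdha, the alpha subunit of the decarboxylase, was at 166 FPKM in DKO and 206 FPKM in Ctrl, 1.24-fold lower (q = 0.00926 in the authors' deposited table).

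The fourth gene, Dld, encodes the dihydrolipoyl dehydrogenase that this complex shares with the pyruvate and oxoglutarate dehydrogenases. It was at 318 FPKM in DKO and 391 FPKM in Ctrl, 1.23-fold lower (q = 0.0266 in the authors' deposited table). The level of Bckdhb relative to Bckdha was 0.239 in DKO and 0.289 in Ctrl, that of Dbt relative to Bckdha was 0.168 in DKO and 0.189 in Ctrl, and that of Dld relative to Bckdha was 1.91 in DKO and 1.89 in Ctrl. These ratios have no error, and their difference between genotypes was not tested.

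Neither regulator of the complex was called. Bckdk, the kinase that inactivates the dehydrogenase, was at 82.7 FPKM in DKO and 91.1 FPKM in Ctrl (q = 0.707 in the authors' deposited table). Ppm1k, the mitochondrial phosphatase that reactivates it, was at 32.3 FPKM in DKO and 35.1 FPKM in Ctrl (q = 0.623 in the authors' deposited table). Kinase and phosphatase thus stood in nearly the same ratio in DKO (2.56) and Ctrl (2.60). Set against the subunits that fell, other than Dld, the kinase stood at 2.08 times Bckdhb in DKO and 1.53 times in Ctrl, and at 2.95 times Dbt in DKO and 2.33 times in Ctrl. Against Bckdha the shift was smaller, at 0.497 times in DKO and 0.442 times in Ctrl. These ratios have no error and no test.

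**Figure D2:**
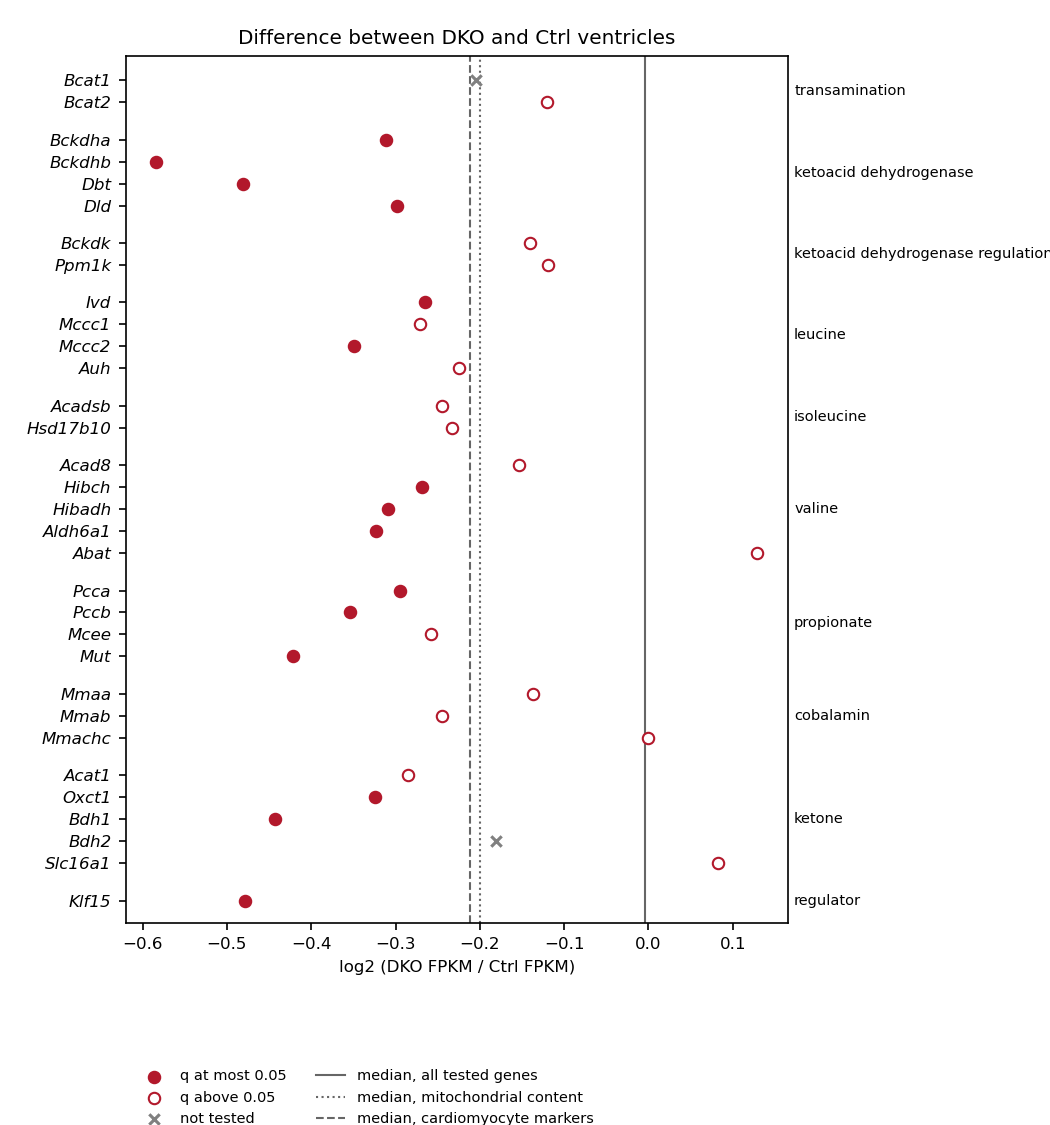
Log2 ratio of DKO over Ctrl FPKM for each of the 32 genes by step, filled where the authors' q was at most 0.05, open where above, crossed where untested, with vertical lines at 3 list medians. All 15 filled points lie left of the medians of the cardiomyocyte markers (-0.21) and of the mitochondrial list (-0.20), and Bckdhb, Dbt and Klf15 lie farthest left. Filled points were picked by their fall, so this place is no separate result.

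The leucine branch had 2 of 4 genes called lower and a median log2 ratio of -0.27. Mccc2, the beta subunit of the biotin-dependent methylcrotonyl-CoA carboxylase, was at 39.0 FPKM in DKO and 49.6 FPKM in Ctrl, 1.27-fold lower (q = 0.00926 in the authors' deposited table). Its partner subunit Mccc1 was at 61.3 FPKM in DKO and 74.0 FPKM in Ctrl and was not called (q = 0.0623 in the authors' deposited table). Ivd, isovaleryl-CoA dehydrogenase, the first step specific to leucine after the ketoacid dehydrogenase, was at 174 FPKM in DKO and 210 FPKM in Ctrl, just inside the call (q = 0.0453 in the authors' deposited table). Auh, the hydratase that follows the carboxylase, was at 93.7 FPKM in DKO and 110 FPKM in Ctrl and was not called. The carboxylase subunits stood in similar proportion in both genotypes, Mccc2 being at 0.635 of Mccc1 in DKO and 0.671 in Ctrl.

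Neither gene listed under isoleucine alone was called. Acadsb, which oxidises the branched acyl-CoA made from isoleucine, was at 61.9 FPKM in DKO and 73.4 FPKM in Ctrl (q = 0.0717 in the authors' deposited table). Hsd17b10, a matrix dehydrogenase that acts later in the same branch, was at 158 FPKM in DKO and 186 FPKM in Ctrl (q = 0.117 in the authors' deposited table). Their log2 ratios, -0.25 and -0.23, were close to those of Ivd (-0.26) and Hibch (-0.27), which were called.

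In the valine branch, 3 of 5 genes fell, all of them late steps. Hibadh, hydroxyisobutyrate dehydrogenase, was at 205 FPKM in DKO and 253 FPKM in Ctrl, 1.24-fold lower (q = 0.0120 in the authors' deposited table). Aldh6a1, the methylmalonate semialdehyde dehydrogenase that makes propionyl-CoA, was at 113 FPKM in DKO and 142 FPKM in Ctrl, 1.25-fold lower with the same q. Hibch, the hydrolase that frees hydroxyisobutyrate from CoA, was at 85.8 FPKM in DKO and 103 FPKM in Ctrl (q = 0.0485 in the authors' deposited table), the member closest to the threshold from inside. Acad8, the isobutyryl-CoA dehydrogenase at the start of the branch, was at 39.5 FPKM in DKO and 43.9 FPKM in Ctrl and was not called. Abat, a transaminase known best for breaking down GABA, was 1 of the 2 tested genes with a log2 ratio above 0 (0.13) and was not called.

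Propionyl-CoA is carboxylated and rearranged to succinyl-CoA, and 3 of the 4 genes of this route fell. Mut, the cobalamin-dependent methylmalonyl-CoA mutase, was at 73.9 FPKM in DKO and 98.9 FPKM in Ctrl, 1.34-fold lower (log2 -0.42; q = 0.00158 in the authors' deposited table). Both subunits of propionyl-CoA carboxylase fell. Pccb was at 57.8 FPKM in DKO and 73.9 FPKM in Ctrl, 1.28-fold lower (q = 0.00407 in the authors' deposited table), and Pcca at 44.2 FPKM in DKO and 54.2 FPKM in Ctrl, 1.23-fold lower (q = 0.0299 in the authors' deposited table). Mcee, the epimerase between carboxylase and mutase, was at 119 FPKM in DKO and 143 FPKM in Ctrl and was not called (q = 0.103 in the authors' deposited table). Pcca stood at 0.764 of Pccb in DKO and 0.734 in Ctrl.

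None of the 3 genes that process the mutase's cobalamin cofactor was called, and their median log2 ratio was -0.14. Mmachc, which handles cobalamin soon after uptake, was level, at 46.0 FPKM in both genotypes. Mmaa, the chaperone that protects the mutase, was at 14.0 FPKM in DKO and 15.4 FPKM in Ctrl. Mmab, the adenosyltransferase, was at 17.4 FPKM in DKO and 20.6 FPKM in Ctrl (q = 0.144 in the authors' deposited table).

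Ketone use had 2 of its 4 tested genes called lower. Bdh1, the mitochondrial dehydrogenase that oxidises 3-hydroxybutyrate, had the larger fall, at 78.7 FPKM in DKO and 107 FPKM in Ctrl, 1.36-fold lower (log2 -0.44; q = 0.00158 in the authors' deposited table). Oxct1, the CoA transferase that activates acetoacetate and the step that sets tissues able to burn ketones apart, was at 695 FPKM in DKO and 870 FPKM in Ctrl, 1.25-fold lower (q = 0.0336 in the authors' deposited table). Acat1, the thiolase that serves both isoleucine breakdown and ketone use, was at 498 FPKM in DKO and 607 FPKM in Ctrl (q = 0.0595 in the authors' deposited table), the member closest to the threshold from outside.

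The transporter and the cytosolic dehydrogenase stood apart. Slc16a1, a monocarboxylate transporter of the plasma membrane that carries lactate and ketone bodies, was at 103 FPKM in DKO and 97.4 FPKM in Ctrl (log2 0.08) and was not called (q = 0.791 in the authors' deposited table). Bdh2, a cytosolic relative of Bdh1, was at 0.406 FPKM in DKO and 0.460 FPKM in Ctrl and was not tested.

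Klf15 itself fell, to 24.0 FPKM in DKO against 33.4 FPKM in Ctrl, 1.39-fold lower (log2 -0.48; q = 0.00158 in the authors' deposited table). Its log2 ratio was close to that of Dbt (-0.48) and larger in size than the median of any enzyme step, of which the ketoacid dehydrogenase had -0.40, propionate -0.32, ketone use -0.30, valine -0.27, leucine -0.27, isoleucine -0.24, cobalamin -0.14, the ketoacid dehydrogenase regulators -0.13 and transamination, from Bcat2 alone, -0.12. Bckdhb, Dbt, Mut, Bdh1 and Klf15 were the 5 members at the smallest p-value the authors' deposited table holds (5e-05), as were 385 tested genes in all. Besides Bckdhb, their loci in mm9 are chr3:116215997-116252899 for Dbt, chr17:41071634-41100416 for Mut, chr16:31422383-31458987 for Bdh1 and chr6:90412620-90425203 for Klf15.

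In bulk tissue, fewer cells of a type and less RNA per cell cannot be told apart, and other gene groups moved with these genes. Log2 ratios were below 0 in 12 of 12 cardiomyocyte markers, none called, with a median of -0.21, and in 11 of 14 genes of general mitochondrial content, with Timm44, an import motor subunit, called lower (70.3 FPKM in DKO, 89.2 FPKM in Ctrl) and a median of -0.20. Of the 30 tested members 22 lay below each of these medians, and all 15 called members did. The smallest fall among the called members had a log2 ratio of -0.26. Since a call takes a large enough fall, their place below these medians is no separate result. The members' median was -0.059 relative to that of the cardiomyocyte markers and -0.070 relative to that of the mitochondrial list. Macrophage markers were called higher in 8 of 8, with a summed level of 358 FPKM in DKO and 227 FPKM in Ctrl, and fibroblast markers in 5 of 8, with 713 FPKM in DKO and 556 FPKM in Ctrl. Endothelial markers held no call among 6 (294 FPKM in DKO, 313 FPKM in Ctrl), and the 4 smooth muscle markers, of which Acta2 was called higher, summed to 415 FPKM in DKO and 335 FPKM in Ctrl. The part of these cell types in the results was not tested.

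**Figure D3:**
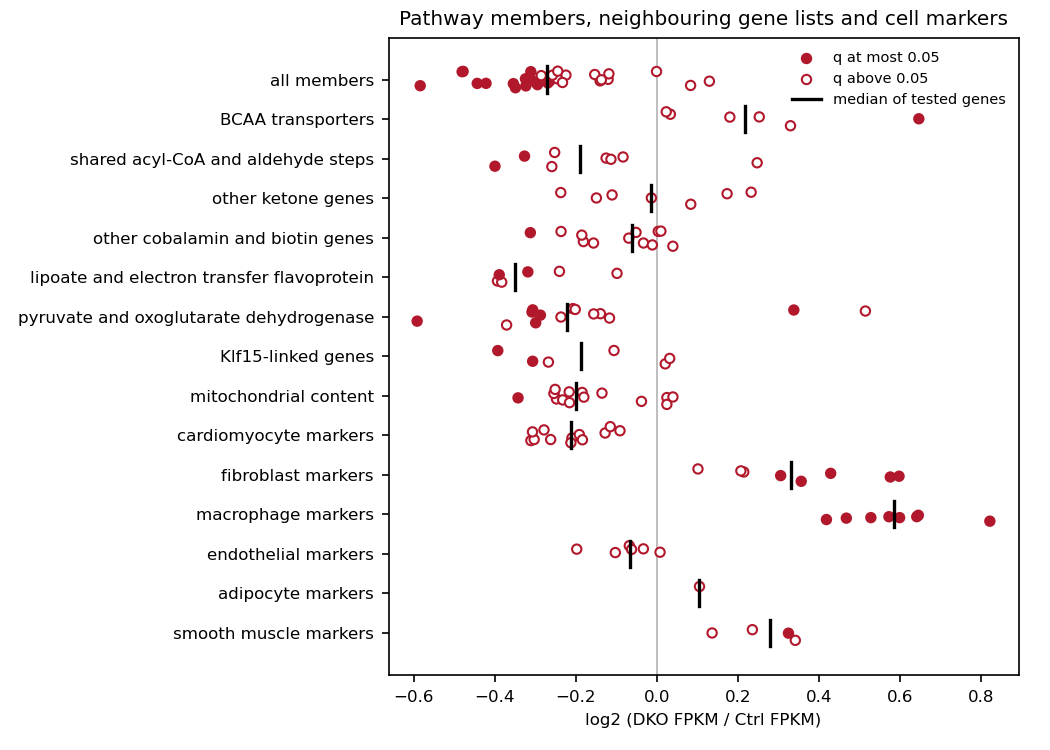
Log2 ratio of DKO over Ctrl FPKM for every tested gene of the pathway (top row), of each neighbouring gene list and of each marker list with a tested gene, filled where the authors' q was at most 0.05, with a bar at each list's median. The members' bar is at -0.27, the electron transfer flavoprotein list's at -0.35, the amino acid transporters' at 0.22 and the macrophage markers' at 0.59.

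Genes next to the pathway were taken from 8 lists holding 73 tested genes. Of these, 13 were called lower and 2 higher, beside 3.06% lower and 4.3% higher over all tested genes. Transporters of branched-chain amino acids had log2 ratios above 0 in 6 of 6, with a median of 0.22 and 1 call. Slc7a5, the light chain of a large neutral amino acid transporter, rose to 3.07 FPKM in DKO against 1.96 FPKM in Ctrl, 1.56-fold higher (q = 0.00517 in the authors' deposited table). Its heavy chain Slc3a2 was at 21.9 FPKM in DKO and 18.4 FPKM in Ctrl and was not called, nor was Slc25a44, the mitochondrial carrier, at 9.03 FPKM in DKO and 8.89 FPKM in Ctrl. These transporters are also found on other cell types, and the source of their RNA was not tested.

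Acyl-CoA dehydrogenases of the pathway, such as Ivd and Acadsb, pass electrons to the electron transfer flavoprotein. In the list of that carrier and of lipoate synthesis, 6 of 6 log2 ratios were below 0 and 2 genes were called lower. Etfb was at 958 FPKM in DKO and 1254 FPKM in Ctrl, 1.31-fold lower (q = 0.00290 in the authors' deposited table), and Etfdh, its ubiquinone reductase, at 455 FPKM in DKO and 568 FPKM in Ctrl, 1.25-fold lower (q = 0.0120 in the authors' deposited table). Etfa, at 1181 FPKM in DKO and 1540 FPKM in Ctrl, had a log2 ratio (-0.38) near that of Etfb (-0.39) and was not called (q = 0.220 in the authors' deposited table).

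The sister complexes that share Dld, the pyruvate and oxoglutarate dehydrogenases with their kinases and phosphatases, had 5 of 14 genes called lower and 1 higher, with a median log2 ratio of -0.22. The called subunits were Pdhb (451 FPKM in DKO, 555 FPKM in Ctrl), Pdhx (87.8 FPKM in DKO, 109 FPKM in Ctrl) and Dlst (373 FPKM in DKO, 455 FPKM in Ctrl). Pdha1, the most abundant gene of the list, was at 647 FPKM in DKO and 747 FPKM in Ctrl, and Ogdh was at 529 FPKM in DKO and 574 FPKM in Ctrl, neither called. Of the regulators in this list, 3 were called. Pdp2, a phosphatase that activates pyruvate dehydrogenase, was 1.51-fold lower, Pdpr, the phosphatase's regulatory subunit, was 1.24-fold lower, and Pdk4, a kinase that inactivates the complex, was at 249 FPKM in DKO and 197 FPKM in Ctrl, 1.26-fold higher.

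The list of acyl-CoA steps shared with fatty acid oxidation, with the aldehyde dehydrogenases Aldh2 and Aldh3a2, had 2 of 8 tested genes called lower. They were Hadh (479 FPKM in DKO, 632 FPKM in Ctrl) and Acaa2 (654 FPKM in DKO, 821 FPKM in Ctrl). Hadhb and Hadha, the most abundant of the list, were at 978 and 792 FPKM in DKO, against 1058 and 864 FPKM in Ctrl, and were not called. Other genes of ketone metabolism analysed here held no call among 7 tested, with a median log2 ratio of -0.01. Bsg, which escorts monocarboxylate transporters to the membrane, was at 1103 FPKM in DKO and 1191 FPKM in Ctrl, and Acat3, a thiolase family gene, was at 13.6 FPKM in DKO and 13.7 FPKM in Ctrl.

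Of 12 other genes for cobalamin and biotin use, only Mmadhc, which directs cobalamin to its target enzymes, was called, at 109 FPKM in DKO and 136 FPKM in Ctrl, 1.24-fold lower (q = 0.0402 in the authors' deposited table). The next gene of the list by mean level, Acacb, was at 61.2 FPKM in DKO and 69.6 FPKM in Ctrl and was not called. Of 6 genes linked to Klf15 in earlier work, 2 were called lower. Log2 ratios were below 0 in 4 of them and above 0 in 2, Prodh (0.02) and Per1 (0.03). The median of this list was -0.19, beside -0.21 for the cardiomyocyte markers. Slc2a4, the insulin-responsive glucose transporter, was at 214 FPKM in DKO and 265 FPKM in Ctrl (q = 0.0190 in the authors' deposited table), and Gpt, an alanine transaminase, at 27.0 FPKM in DKO and 35.5 FPKM in Ctrl (q = 0.00407 in the authors' deposited table). Kcnip2, a potassium channel subunit, was at 174 FPKM in DKO and 187 FPKM in Ctrl and was not called. The list of mitochondrial content was led by Cs, citrate synthase, at 716 FPKM in DKO and 850 FPKM in Ctrl, and Vdac1, the outer membrane channel, at 667 FPKM in DKO and 758 FPKM in Ctrl, neither called.

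The isoform table held 56 transcripts of the 32 genes, 18 of them splice forms outside the reference annotation, and 16 genes had a single transcript. Of 49 tested, 6 were called lower and none higher, beside 1.12% of all tested isoforms called lower and 1.9% higher. They belonged to Bckdhb, Dbt, Hibadh, Pccb, Bdh1 and Klf15, each also called as a gene. Dbt, Hibadh, Pccb and Klf15 had a single transcript, whose level is that of the gene, so their agreement is no separate result. The called transcript of Bdh1 made up 99.5% of its gene in DKO. The called transcript of Bckdhb was its main one, an unannotated splice form of 1309 bases at 35.6 FPKM in DKO and 55.0 FPKM in Ctrl (q = 0.00312 in the authors' deposited table). The annotated transcript of 1398 bases, from another start site, was at 4.11 FPKM in DKO and 4.56 FPKM in Ctrl and was not called. Minor unannotated forms that were not called were also listed for Bckdha, of 1662 bases at 4.15 FPKM in DKO and 7.61 FPKM in Ctrl, and for Aldh6a1, of 3270 bases at 8.55 FPKM in DKO and 12.7 FPKM in Ctrl.

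Several called genes had transcripts with ratios of the same sign, none of them called singly. Mut had an annotated transcript of 3675 bases at 42.8 FPKM in DKO and 54.5 FPKM in Ctrl and an unannotated one of 2250 bases at 31.0 FPKM in DKO and 44.4 FPKM in Ctrl. Oxct1 was split nearly evenly between start sites, with a transcript of 3482 bases at 382 FPKM in DKO and 486 FPKM in Ctrl and one of 2692 bases at 313 FPKM in DKO and 385 FPKM in Ctrl. Mccc2 likewise had a transcript of 2124 bases at 23.5 FPKM in DKO and 29.0 FPKM in Ctrl and one of 1899 bases at 15.4 FPKM in DKO and 20.6 FPKM in Ctrl. In Bckdha and Aldh6a1 the annotated transcript dominated, with 97.5% of the gene's level in DKO and 96.3% in Ctrl for Bckdha, and 92.5% in DKO and 91.1% in Ctrl for Aldh6a1.

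**Figure D4:**
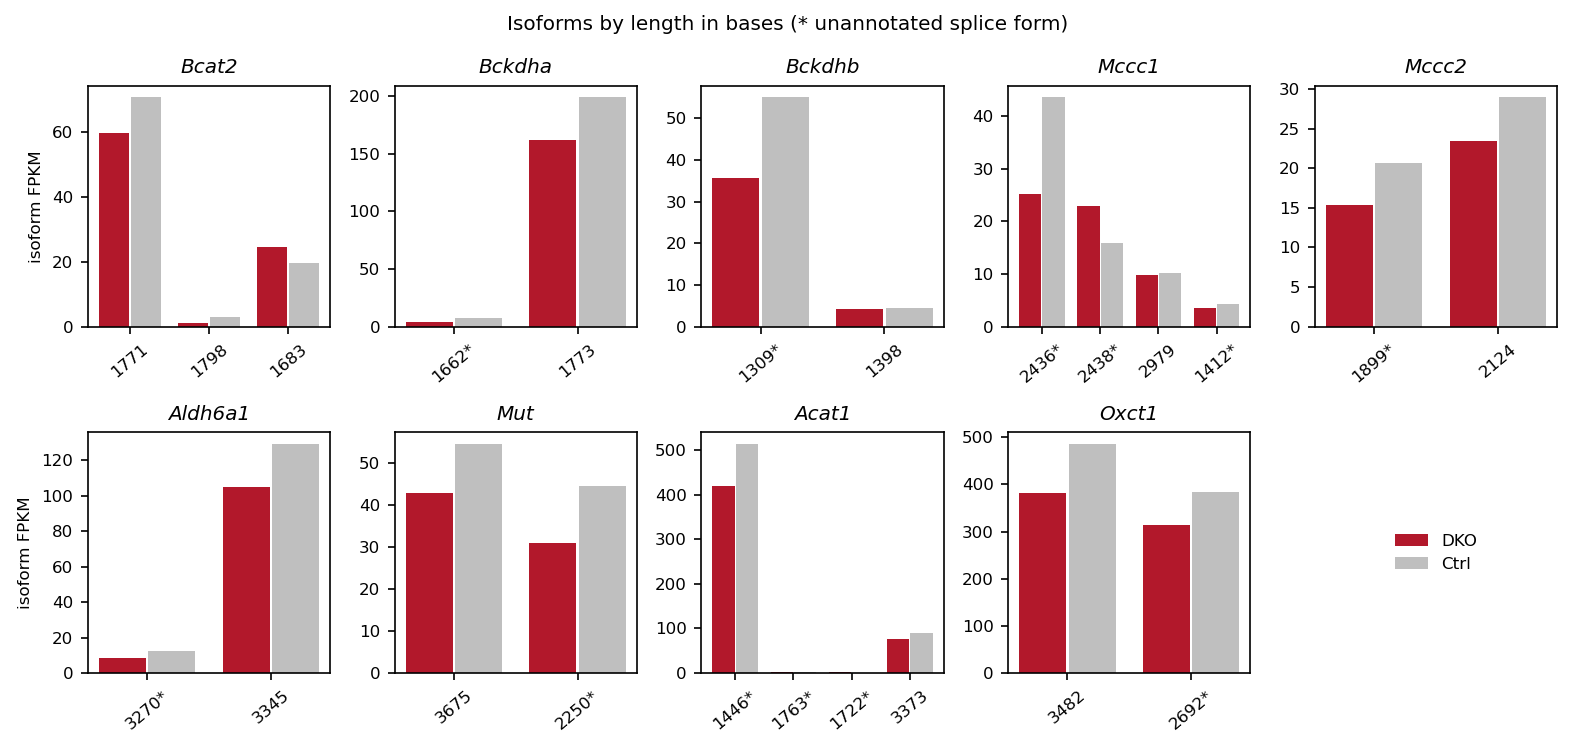
FPKM of each isoform at a mean of at least 1 FPKM for 9 genes with several isoforms, DKO bars left of Ctrl bars, named by length in bases and starred where the splice form is unannotated, each bar 1 pooled value. The transcripts of Bckdhb, Mut and Oxct1 are all lower in DKO, while in Bcat2, Mccc1 and Acat1 some are higher and some lower.

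Transcripts of 3 genes that were not called, Bcat2, Mccc1 and Acat1, were chosen after their values were seen. Bcat2 had its main transcript of 1771 bases at 59.7 FPKM in DKO and 70.5 FPKM in Ctrl, and one of 1683 bases at 24.6 FPKM in DKO and 19.4 FPKM in Ctrl, so that the shorter made up 28.8% of the gene in DKO and 20.9% in Ctrl. Mccc1 had unannotated transcripts of 2436 and 2438 bases that differ by very little in length. The first was at 25.1 FPKM in DKO and 43.5 FPKM in Ctrl and the second at 22.9 FPKM in DKO and 15.9 FPKM in Ctrl, and neither was called. In Acat1 an unannotated form of 1446 bases made up 84.0% of the level in DKO and 84.7% in Ctrl. That form and the annotated one of 3373 bases were lower in DKO. Forms of 1763 bases (2.21 FPKM in DKO, 1.79 FPKM in Ctrl) and 1722 bases (1.28 FPKM in DKO, 0.941 FPKM in Ctrl) were higher. No transcript of Acat1 was called. Cuffdiff assigns reads shared by overlapping transcripts by a model, and values of single transcripts carry that uncertainty.

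The 32 genes lay on 16 chromosomes, with 5 on chromosome 7 and 4 each on chromosomes 3, 6 and 9. Loci of Oxct1, Aldh6a1, Acat1, Mccc1 and Bcat2 overlapped other listed loci, of which the most abundant was Rnf113a2, within the Aldh6a1 locus, at 8.81 FPKM in DKO and 8.32 FPKM in Ctrl. Near Oxct1, the overlapping BC037032 was at 1.13 FPKM in DKO and 1.75 FPKM in Ctrl. Whether the counting used strand is not stated, so reads of overlapping genes cannot be assigned with certainty. Each of these neighbours was far below the member it overlaps.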

How the data were processed

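Ventricular RNA of 4 DKO and 4 Ctrl mice was sequenced from TruSeq single-end libraries, per the labels' protocols. Per the submitters' processing notes, TopHat2 2.0.9 aligned the reads to mm9, and transcripts and comparisons came from Cufflinks and Cuffdiff, each at version 2.1.1. Annotation and settings are not stated. The 4 tables used hold genes, isoforms, start site groups and coding sequences. Each holds the authors' FPKM, 1 value per genotype, and the authors' p-values and q-values, per the file headers; a subset table was not used. Positions are in mm9, counted from 1. Log2 ratios were recomputed as DKO over Ctrl, with no pseudocount.

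No test across animals was possible. A gene was called at the authors' q of at most 0.05. Members and lists were chosen with earlier results of these data known. The text names all 32 members, every called gene and the 2 most abundant tested genes of each neighbouring list, and isoforms at a mean of at least 1 FPKM of called members, single transcripts being given by their gene's value, and of members whose main isoform ran opposite to the gene; other choices are marked. Of the list of other ketone genes, 2 are not reported here and were left out of its counts. Counting was tested on simulated data. Python 3.11.15, pandas 2.3.3, numpy 2.4.6 and matplotlib 3.10.9 were used.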

Additional observations from a re-analysis of the deposited data

How the results depend on the processing

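No paired analysis was possible because the tables hold 1 pooled value per genotype, and for the same reason no replicate could be left out. Of 118 alternative values over 17 results, 101 stayed within 1.5 times the main value and no median changed sign. Counts have no sign to change. Leaving out loci listed under several gene names, or genes below a mean of 5 FPKM, left every member count and member median as it was. Part of the 101 could thus not have moved. Pseudocounts of 0.1 and 1 were small beside the levels of the tested members, and the median of all tested genes was -0.0042. Adding or subtracting these could hardly move a median. Genes with a single transcript repeat their gene's value as main isoform. The members called lower, 15 at first, numbered 8 at a q of at most 0.01 and 5 with a fold of at least 1.3. Counted by gene, they numbered 10 in the start site table, 6 in the isoform table and 7 in the coding table. They numbered 12 without loci over 100 kb, an alternative chosen after seeing the data. Genes of the neighbouring lists called lower, 13 at first, numbered 5 at the stricter q and 4 with the fold minimum. Those called higher, 2 at first, numbered 1 under either of these and 1 at a mean of at least 5 FPKM. Over all genes, 192 lower and 332 higher calls held the stricter q, 207 lower and 437 higher calls the fold minimum, and 311 lower and 303 higher calls the FPKM minimum, against 371 lower and 522 higher at first. The stricter q and the minimums keep part of the gene calls by construction. The start site, isoform and coding tables hold their own q-values. Dld, Ivd, Hibch and Pcca, each with a single transcript, had the same Cuffdiff p-value as gene and as isoform. Their q was at most 0.05 as gene and above 0.05 as isoform (0.0266 and 0.0516 for Dld in the authors' deposited tables). For the other members the cause of the lower counts was not tested. The shares of all start site groups and of all coding sequences called were not computed, so the counts from those tables stand without a background. The members' median log2 ratio of -0.27 became -0.059 relative to the cardiomyocyte markers and -0.070 relative to the mitochondrial list. Transamination, resting on Bcat2, had -0.12 from the gene total and -0.24 from its main isoform and from its coding sequence. Depth is unknown, so no interval or detection floor was computed.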
